A study of Saccharomyces cerevisiae with 8 samples.

Results

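The genes described here carry the entry of ammonium into the budding yeast cell and its traffic through glutamate and glutamine. They were the ammonium transporter genes MEP1, MEP2 and MEP3, the glutamate dehydrogenase genes GDH1, GDH2 and GDH3, the glutamine synthetase gene GLN1 and the glutamate synthase gene GLT1. These 8 genes were chosen by name from the 6569 genes of the deposited table, as genes of this pathway and with earlier results of these data known, and all 8 were found. Each was followed as scaled signal, the value the authors deposited for each gene, in 8 poly(A) RNA libraries made with a strand-specific protocol.

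Wild type was BY4741, a MATa laboratory strain that carries his3-delta-0 and leu2-delta-0 and also met15-delta-0 and ura3-delta-0. It was grown in YPD, a rich glucose medium, at 30 °C to an optical density of 0.5, and was left untreated or given rapamycin at 200 ng/mL for 10 or 60 min, with 2 biological replicates in each of the 3 groups. Rapamycin inhibits TORC1, the kinase complex that couples growth to nutrient supply. A second comparison, made at 26 °C in YPD at an optical density of 0.5, set prp4-1 against prp4-1 pGAL-IFH1, with 1 library each. The prp4-1 allele alters a spliceosomal protein, and the strain is labelled MATalpha with ade2-, the double allele of leu2-3 and leu2-112, ura3-52 and his3-delta-200. In its partner, IFH1, a transcription factor gene for ribosomal protein genes, stood behind the GAL1 promoter, which glucose represses (k-HIS3:pGAL1-IFH1). IFH1 is labelled as lowered by about 50% in it, and its label gives no mating type and no other allele. IFH1 signal was 154 in prp4-1 and 86.1 in prp4-1 pGAL-IFH1, a log2 ratio of -0.83.

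Yeast takes up ammonium through the Mep permeases, of which Mep2 has the highest affinity and also serves as a sensor in filamentous growth. Ammonium is joined to 2-oxoglutarate by the NADP-dependent glutamate dehydrogenases Gdh1 and Gdh3, or to glutamate by glutamine synthetase Gln1, while glutamate synthase Glt1 moves the amide of glutamine onto 2-oxoglutarate. Gdh2, which uses NAD, works in the opposite direction and releases ammonium from glutamate. Several of these genes are classic targets of the GATA factors Gln3 and Gat1, which TORC1 and good nitrogen sources hold in check and which bind short sites around GATAAG.

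The upstream sequences show how unevenly that hexamer is spread over the genes. The stretches below run from 500 to 201 bases before the start codon, a window chosen after the matches were seen, and are shown for the gene with the most matches, for another transporter gene, for the gene that rose most between 10 and 60 min and for the gene with no match. They are RefSeq sequence of the R64 assembly, which has the same coordinates for these genes as sacCer3, each written 5′ to 3′ on the strand of its gene. Capitals mark GATAAG or its reverse complement CTTATC, and a capital run longer than 6 letters holds matches that overlap or touch. MEP2 is from chrXIV:356953-357252 on the plus strand, MEP1 from chrVII:733128-733427 on the minus strand, GDH3 from chrI:31067-31366 on the plus strand and GDH2 from chrIV:74119-74418 on the minus strand.
MEP2: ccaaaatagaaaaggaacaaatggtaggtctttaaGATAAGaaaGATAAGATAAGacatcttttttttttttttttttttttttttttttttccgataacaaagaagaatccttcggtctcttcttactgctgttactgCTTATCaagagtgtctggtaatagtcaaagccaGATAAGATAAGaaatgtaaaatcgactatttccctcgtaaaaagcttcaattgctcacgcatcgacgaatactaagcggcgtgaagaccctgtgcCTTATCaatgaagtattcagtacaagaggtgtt
MEP1: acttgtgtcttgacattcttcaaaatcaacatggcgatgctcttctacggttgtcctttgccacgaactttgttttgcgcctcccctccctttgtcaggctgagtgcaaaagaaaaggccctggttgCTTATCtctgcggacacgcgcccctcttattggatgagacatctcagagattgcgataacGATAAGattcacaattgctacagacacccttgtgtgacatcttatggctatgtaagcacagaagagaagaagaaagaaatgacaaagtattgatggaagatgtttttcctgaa
GDH3: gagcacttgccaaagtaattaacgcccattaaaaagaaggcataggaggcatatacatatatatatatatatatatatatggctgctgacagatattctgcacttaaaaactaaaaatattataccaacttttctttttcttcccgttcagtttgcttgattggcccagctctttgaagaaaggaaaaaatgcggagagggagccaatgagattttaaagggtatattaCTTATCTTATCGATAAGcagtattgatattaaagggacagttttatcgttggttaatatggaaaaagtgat
GDH2: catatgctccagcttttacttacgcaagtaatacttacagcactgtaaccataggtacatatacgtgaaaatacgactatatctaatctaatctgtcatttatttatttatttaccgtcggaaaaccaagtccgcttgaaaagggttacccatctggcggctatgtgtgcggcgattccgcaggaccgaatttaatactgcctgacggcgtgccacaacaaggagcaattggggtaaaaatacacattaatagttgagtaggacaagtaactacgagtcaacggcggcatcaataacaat

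Over the 600 bases before the start codon, searched on both strands, MEP2 held 7 GATAAG matches, and it was the 1 promoter of 5999 with that many. MEP3 held 5, a number reached by 7 promoters. GDH1 and GDH3 held 3 each, reached by 42 promoters, and MEP1 and GLT1 held 2 each, reached by 295. GLN1 held 1 and GDH2 held 0, where 26.8% of the 5999 promoters held at least 1. The 3 matches of GDH3 lay within bases 271 to 255 before its start codon, whereas those of MEP2 ran from base 465 to base 228. The MEP2 stretch from its first base to position 357186 lies in the open reading frame YNL143C (chromosome XIV, 356794 to 357186). All MEP2 matches but that at bases 233 to 228 before the start codon lie within this frame. The shorter core GATAA, contained in every GATAAG match, was in 84% of promoters and in all members but GDH2.

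**Figure D1:**
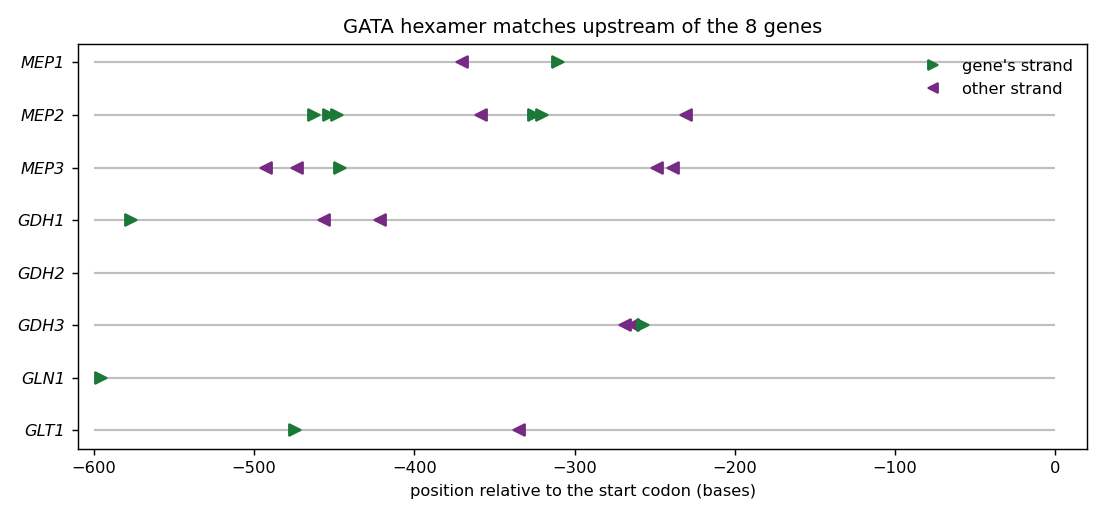
Positions of GATAAG matches in the 600 bases before the start codon of each gene (horizontal axis, bases relative to the start codon), with arrowheads for matches on the gene's strand and on the other strand. MEP2 has 7 matches and GDH2 has 0, and the 3 matches of GDH3 lie together.

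Sites of other factors known from these genes were searched as well. TGACTC, the site of Gcn4, the activator of amino acid synthesis genes, occurred once each upstream of GDH1, GDH2, GLN1 and GLT1, and in 15.3% of all promoters. CCAAT, the site of the Hap complex, occurred 5 times upstream of GDH1, a number reached by 52 promoters, against 2 each for GDH2 and GDH3 and 0 for MEP2 and GLN1, and 70.3% of all promoters held at least 1. GDH1 also held 1 match to the site of Leu3, found in 20 promoters (0.333%). Both strands were searched for each, and a match is a string of letters, not a measured site.

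The libraries carried the marks of their labelled strains. The 6 a-specific genes had signal of 78.2 to 3347 in the wild-type libraries and 7.57 to 60.4 in the prp4-1 pair, and the 4 alpha-specific genes 1.52 to 55.6 in wild type and 1008 to 21822 in the pair. URA3 was listed at 0 in all 6 wild-type libraries. In prp4-1 the signal of MET17, the gene also called MET15, was 1495 and that of URA3 was 111, and both were listed at 0 in prp4-1 pGAL-IFH1, so these strains differed at loci besides IFH1. Summed scaled signal was 2025663 to 3319861 per library, falling from 3206357 and 3306674 in the untreated libraries to 2025663 and 2037245 at 60 min. Replicates correlated across genes at r = 0.9946, 0.9967 and 0.9968 for untreated, 10 min and 60 min. How many reads stand behind each value is not known.

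All 8 genes were higher after 10 min of rapamycin and again after 60 min than in untreated cells. At 10 min 8 of 8 passed limma's test at a Benjamini-Hochberg adjusted p under 0.05 as higher, where 26.8% of the 6127 genes tested were called higher and 30.2% lower. Their median log2 change was 2.16, against -0.02 over all tested genes. At 60 min 8 of 8 were again called higher, against 38.6% of all genes called higher and 38.5% lower, with a median of 2.10 against -0.00. The libraries did not overlap between treated and untreated for any of the 8 at either time, in the direction of a rise, as was so for 36.8% of genes at 10 min and 43.9% at 60 min. Both comparisons share the untreated libraries. In these bulk cultures, a change in every cell and a larger change in some of the cells cannot be told apart.

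**Figure D2:**
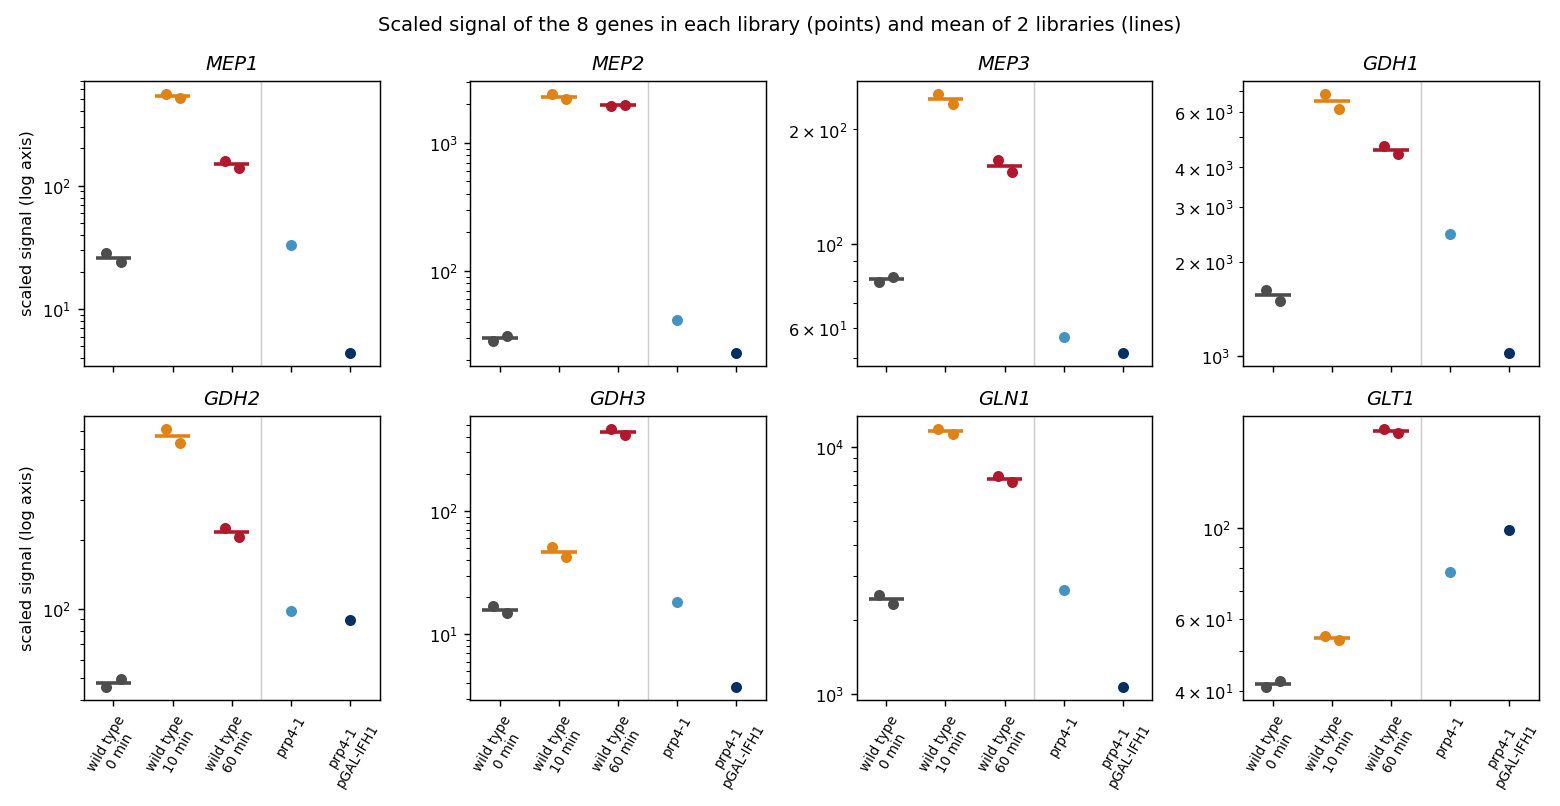
Scaled signal of each gene (vertical axis, log scale) in each library (points), with the mean of 2 libraries (lines) for wild type and single libraries for the prp4-1 pair. On the authors' scaling MEP1, MEP2, MEP3, GDH1, GDH2 and GLN1 peak at 10 min, whereas GDH3 and GLT1 are highest at 60 min.

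MEP2 (YNL142W, chromosome XIV, 357453 to 358952, plus strand, 1 exon) moved from one of the weaker members to one of the strongest. Its scaled signal was 28.3 and 31.1 in untreated libraries 21 and 24, 2403 and 2188 in the 10 min libraries 22 and 25, and 1939 and 1970 in the 60 min libraries 23 and 26. All treated libraries were far above the untreated ones, and the 10 min libraries were above those of 60 min. The log2 change was 6.22 at 10 min (SE 0.0792, limma adjusted p = 9.98e-09), which ranked 2 among the 6127 genes from the largest rise, and 5.99 at 60 min (limma adjusted p = 5.02e-09), which ranked 5.

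MEP1 (YGR121C, chromosome VII, 731449 to 732927, minus strand, 1 exon), a transporter of lower affinity than Mep2, rose early and then fell back. Its signal was 28.4 and 24.0 untreated, 552 and 508 at 10 min, and 158 and 139 at 60 min. The 60 min libraries lay between the other groups without overlap. The rise was 4.29 on the log2 scale at 10 min (SE 0.103, limma adjusted p = 9.77e-08, rank 10) and 2.46 at 60 min (limma adjusted p = 2.75e-07, rank 223).

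MEP3 (YPR138C, chromosome XVI, 810984 to 812453, minus strand, 1 exon), the low-affinity transporter, had the highest untreated signal of the MEP genes and the smallest rise of the 3. Signal was 79.4 and 82.1 untreated, 248 and 233 at 10 min, and 166 and 155 at 60 min. The groups again did not overlap, with 10 min highest. The log2 change was 1.56 at 10 min (SE 0.0726, limma adjusted p = 1.33e-06) and 0.98 at 60 min (limma adjusted p = 6.87e-06).

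The makeup of the transporter transcripts turned over within 10 min. Per kilobase of gene, MEP3 held 58.7% and 60.2% of the summed MEP signal in the untreated libraries, MEP2 20.5% and 22.3%, and MEP1 20.8% and 17.5%. At 10 min MEP2 held 74.7% and 74.4%, MEP1 17.4% and 17.5%, and MEP3 7.88% and 8.09%. By 60 min MEP2 reached 85.5% and 86.8%, while MEP1 was at 7.04% and 6.21%. MEP1 thus kept its share while its signal rose at 10 min, and lost share by 60 min. The 3 genes together took 0.00411% and 0.00428% of all library signal untreated, 0.112% and 0.106% at 10 min, and 0.111% and 0.112% at 60 min. Ratios within a library do not depend on the scaling, except slightly through the pseudocount of 1. The log2 ratio of MEP2 to MEP1 averaged 0.18 untreated, 2.11 at 10 min and 3.71 at 60 min, and that of MEP2 to MEP3 -1.41, 3.25 and 3.60. For every such difference between groups of 2 libraries, the two-sided exact permutation p was 0.333, the smallest this design allows.

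**Figure D3:**
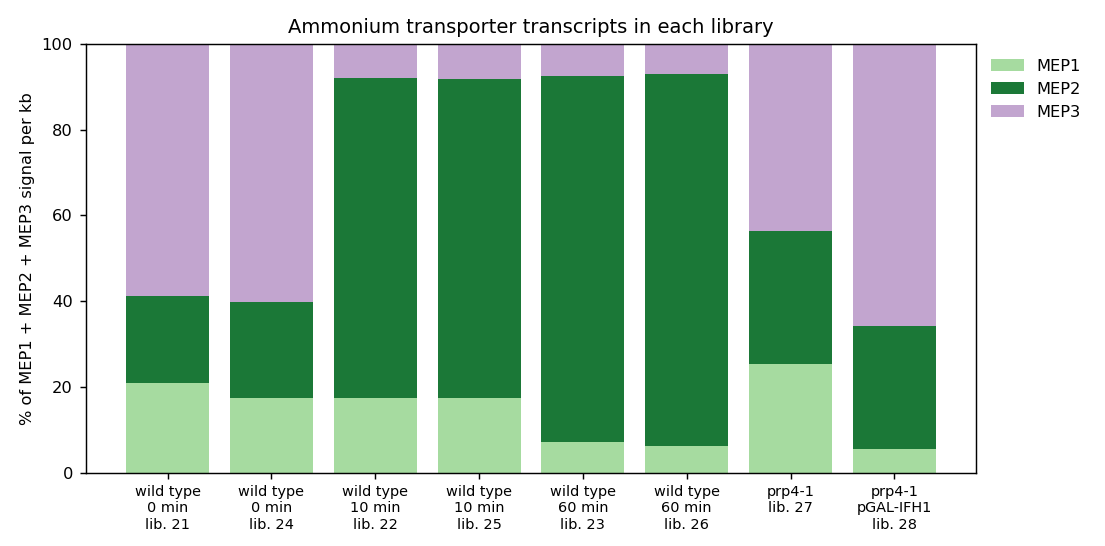
Share of MEP1, MEP2 and MEP3 in their summed scaled signal per kilobase (vertical axis, %) in each of the 8 libraries (bars, 1 library each). MEP3 leads in the untreated wild-type libraries (58.7% and 60.2%) and MEP2 in all 4 rapamycin libraries (74.4% to 86.8%).

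GDH1 (YOR375C, chromosome XV, 1041678 to 1043042, minus strand, 1 exon), the main ammonium-fixing dehydrogenase in glucose, was abundant from the start. Its signal was 1623 and 1502 untreated, 6869 and 6172 at 10 min, and 4684 and 4421 at 60 min. The groups did not overlap. GDH1 rose by 2.06 at 10 min on the log2 scale (SE 0.0937, limma adjusted p = 1.19e-06) and by 1.54 at 60 min (limma adjusted p = 2.17e-06).

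GDH3 (YAL062W, chromosome I, 31567 to 32940, plus strand, 1 exon), the paralogue of GDH1 known for use on non-fermentable carbon, rose late. Signal was 16.9 and 14.9 untreated, 50.8 and 42.7 at 10 min, and 464 and 415 at 60 min. Both 60 min libraries stood far above all others. Its log2 change was 1.50 at 10 min (SE 0.111, limma adjusted p = 1.7e-05, rank 159) and 4.70 at 60 min (limma adjusted p = 1.48e-08, rank 23). Per kilobase, GDH3 signal was 1.04% and 0.983% of GDH1 signal untreated, 0.734% and 0.688% at 10 min, and 9.83% and 9.32% at 60 min, so GDH1 remained the stronger of the pair in all 6 libraries. The mean log2 ratio of GDH3 to GDH1 was -6.53, -7.10 and -3.37 in the 3 groups. The coding sequences share 76.2% of their bases with a longest identical run of 35 bases, and the effect of reads that could map to both was not tested.

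GDH2 (YDL215C, chromosome IV, 70640 to 73918, minus strand, 1 exon), the glutamate-degrading enzyme, rose more than the fixing enzyme GDH1 at both times. Its signal was 45.4 and 49.5 untreated, 611 and 531 at 10 min, and 226 and 206 at 60 min. The groups were ordered as for MEP1, with no overlap. The log2 change was 3.56 at 10 min (SE 0.0931, limma adjusted p = 1.11e-07, rank 17) and 2.16 at 60 min (limma adjusted p = 3.16e-07). The mean log2 ratio of GDH2 to GDH1 within a library went from -5.01 untreated to -3.51 at 10 min and -4.39 at 60 min, with no overlap between groups and an exact permutation p of 0.333 in each comparison. Its 10 min rise was the third largest of the members, and it was the 1 member with no GATAA match in the 600 bases before its start codon. Whether GATA factors act on GDH2 was not tested.

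GLN1 (YPR035W, chromosome XVI, 642208 to 643320, plus strand, 1 exon), which makes glutamine from glutamate and ammonium, had the highest signal of the 8 genes in every library. It stood at 2522 and 2321 untreated, 11808 and 11249 at 10 min, and 7638 and 7191 at 60 min. The groups did not overlap and the 10 min libraries were highest. GLN1 rose by 2.25 at 10 min (log2 scale, SE 0.0938, limma adjusted p = 7.53e-07) and by 1.61 at 60 min (limma adjusted p = 1.69e-06).

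GLT1 (YDL171C, chromosome IV, 149203 to 155640, minus strand, 1 exon), the glutamate synthase that uses the product of Gln1, behaved differently from GLN1. Signal was 40.7 and 42.2 untreated, 54.4 and 53.3 at 10 min, and 175 and 171 at 60 min. The 10 min libraries were only slightly above the untreated ones, without overlap, and the 60 min libraries were clearly highest. The log2 change was 0.37 at 10 min (SE 0.0690, limma adjusted p = 0.00265, rank 1367 from the largest rise) and 2.03 at 60 min (limma adjusted p = 8.58e-08). GLN1 signal was 359 and 318 times that of GLT1 per kilobase in the untreated libraries, 1255 and 1221 times at 10 min, and 252 and 244 times at 60 min. The mean log2 ratio of GLN1 to GLT1, taken without division by length, rose from 5.83 untreated to 7.72 at 10 min. At 60 min it stood at 5.41, below its start, with an exact permutation p of 0.333 for each difference.

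Between 10 and 60 min the genes split. GDH3 rose by 3.21 on the log2 scale (limma adjusted p = 1.86e-07) and GLT1 by 1.66 (limma adjusted p = 5.54e-07), and these 2 were called higher where 35.4% of all genes were. The other 6 were called lower, against 33.8% of all genes. MEP1 fell by 1.83 (limma adjusted p = 3e-06) and GDH2 by 1.40 (limma adjusted p = 7.65e-06). Smaller falls were those of GLN1 (log2 change -0.64), MEP3 (-0.58), GDH1 (-0.52) and MEP2 (-0.23, limma adjusted p = 0.0322). The median of the 8 was -0.55, against 0.02 over all tested genes.

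These smaller falls depended on how libraries were put on a common scale. With every library scaled to the same total signal, the median log2 change of all genes moved by 0.21 at 10 min, 0.67 at 60 min and 0.46 between 10 and 60 min. All 8 genes were still called higher at both times. Between 10 and 60 min, 2 members were then called lower instead of 6. MEP2 went to 0.23 (limma adjusted p = 0.0279), MEP3 to -0.12 (limma adjusted p = 0.194), GDH1 to -0.05 (limma adjusted p = 0.593) and GLN1 to -0.17 (limma adjusted p = 0.0979). The split over all genes moved too, from 1645 higher and 1848 lower to 2560 and 1152 at 10 min, from 2365 and 2360 to 3997 and 1125 at 60 min, and from 2168 and 2069 to 3775 and 908 between the times. The call on MEP2 was also lost without library 22 (log2 change -0.16, limma adjusted p = 0.195), 23 (-0.22, 0.136) or 26 (-0.24, 0.104).

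**Figure D4:**
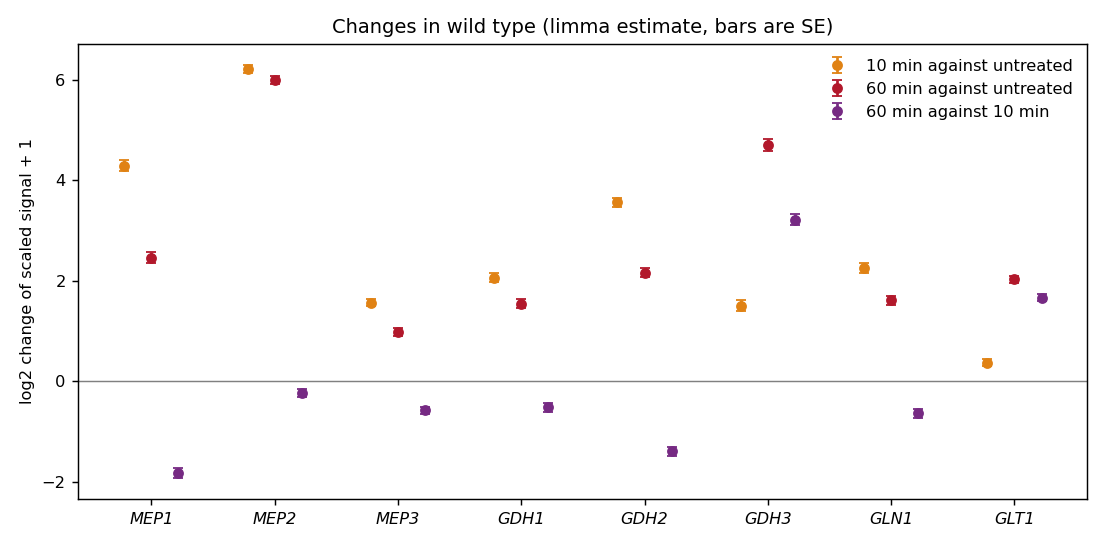
Log2 change of scaled signal plus 1 (vertical axis) of the 8 genes in wild type for 3 comparisons, as limma estimates with bars of 1 SE. All 8 lie above 0 at 10 and 60 min against untreated, and between 10 and 60 min GDH3 (3.21) and GLT1 (1.66) rise while the others fall on the authors' scaling.

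Ordered by mean scaled signal per kilobase, untreated cells had GLN1 (2176), GDH1 (1145), MEP3 (54.9), MEP2 (19.8), MEP1 (17.7), GDH2 (14.5), GDH3 (11.6) and GLT1 (6.43), with the libraries of MEP2 and MEP1 overlapping. At 10 min the order was GLN1 (10358), GDH1 (4777), MEP2 (1530), MEP1 (358), GDH2 (174), MEP3 (164), GDH3 (34.0) and GLT1 (8.36), and GDH2 overlapped MEP3. At 60 min GDH3 (320) stood next after GLN1 (6662), GDH1 (3335) and MEP2 (1303), followed by MEP3 (109), MEP1 (100), GDH2 (65.9) and GLT1 (26.8), and MEP3 overlapped MEP1. Neighbours not named as overlapping had libraries that did not overlap. Whether the deposited signal is already divided by length is not stated. Without that division GLN1 and GDH1 led in each group as well, with MEP3 next in untreated cells and MEP2 next after rapamycin, but the long genes GDH2 and GLT1 moved up.

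The transcripts with the most similar course over the 6 wild-type libraries differed from member to member. Likeness was the Euclidean distance between centred log2 values, over 5574 genes whose mean signal reached 10. Nearest to MEP2 were the general amino acid permease gene GAP1 (distance 0.762) and DAL3 of allantoin breakdown (1.62). Nearest to MEP1 were the proline permease gene PUT4 (0.609) and the oligopeptide transporter gene OPT2 (0.753). Nearest to GDH3 were UGA2, for succinate semialdehyde dehydrogenase (0.367), and the peroxiredoxin gene TSA2 (0.464). For GLT1 they were the metal transporter gene SMF1 (0.104) and GFA1, for the glutamine-using enzyme of glucosamine synthesis (0.15). GLN1 was nearest to YOR062C (0.289) and the arginine permease gene CAN1 (0.331), GDH2 to the phosphoglucomutase gene PGM2 (0.346) and AIM17 (0.449), GDH1 to YNL092W (0.23) and SDS24 (0.241), and MEP3 to RPM2 (0.0806) and RIP1 (0.183).

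The genes that act on the transporters or export ammonium moved in both directions. Of 5 genes, 3 rose and 1 fell at 10 min (median log2 change 0.37), and 3 rose and 1 fell at 60 min (median 0.71). Of all tested genes, 26.8% were called higher and 30.2% lower at 10 min, and 38.6% and 38.5% at 60 min. NPR1, the kinase that keeps the Mep proteins active, went from 56.6 and 51.3 untreated to 116 and 113 at 10 min and 141 and 159 at 60 min, log2 changes of 1.07 (limma adjusted p = 2.82e-05) and 1.46 (limma adjusted p = 1.92e-06). The presumed ammonium exporters parted. ATO2 rose from 10.1 and 6.92 to 72.0 and 61.9 and then 39.9 and 33.4, log2 changes of 2.85 (limma adjusted p = 6.01e-06) and 2.00 (limma adjusted p = 1.9e-05). ATO3 fell from 313 and 352 to 138 and 138 and then 43.2 and 46.4, log2 changes of -1.26 (limma adjusted p = 7.73e-06) and -2.86 (limma adjusted p = 3.49e-08).

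Among 15 transcription regulators of nitrogen and glutamate genes, 7 rose and 5 fell at 10 min (median log2 change 0.32), and 10 rose and 2 fell at 60 min (median 0.36). The share that fell at 10 min was near the 30.2% of all tested genes, of which 26.8% rose at 10 min. At 60 min 38.6% of all genes rose and 38.5% fell. Without library 22, 3 instead of 5 fell at 10 min. DAL80, a GATA repressor, went from 1.54 and 1.66 to 81.5 and 91.6 and then 313 and 334. It rose at each step, with log2 changes against untreated of 5.07 (limma adjusted p = 4.46e-08) and 6.96 (limma adjusted p = 5.02e-09). The activator gene GAT1 followed the course of MEP1 and GDH2, from 128 and 96.1 to 724 and 814 and then 246 and 287, log2 changes of 2.78 and 1.26 (limma adjusted p = 2.16e-06 and 8.39e-05). GLN3, for the other activator, was at -0.19 at 10 min, close to the threshold (limma adjusted p = 0.0525), and rose by 1.48 at 60 min. The repressor gene GZF3 rose by 0.63 and 1.07. LEU3, a regulator of GDH1, had log2 changes of -1.09 and -0.65, both called lower, but stood at 0.02 (limma adjusted p = 0.882) at 60 min with each library scaled to the same total signal. That scaling left 2 of the 15 genes called lower at 10 min and 1 at 60 min. Over all 6127 tested genes the counts were 1152 and 1125.

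Among the genes that supply 2-oxoglutarate, the carbon skeleton of glutamate, 10 of 14 rose and 2 fell at 10 min (median 0.66), where 26.8% of all tested genes rose and 30.2% fell. At 60 min 12 rose and 1 fell (median 1.74), where 38.6% and 38.5% of all genes did. CIT2, the peroxisomal citrate synthase gene, went from 195 and 213 to 2453 and 2219 and then 3137 and 2998. CIT1, its mitochondrial counterpart, went from 176 and 212 to 1159 and 1016 and then 1265 and 1121. These are log2 changes of 3.51 and 3.91 for CIT2 and 2.48 and 2.62 for CIT1. PYC1, for pyruvate carboxylase, rose by 3.38 and 3.63, and CIT3, a further mitochondrial citrate synthase gene, by 0.87 and 2.95. All were called by limma, with adjusted p values of 0.000299 or lower. With the same total signal per library 1 gene was called lower at 10 min and 0 at 60 min. Over all 6127 tested genes the counts were 1152 and 1125.

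The transaminases and other enzymes that form or use glutamate rose in part. Of 12 genes, 6 rose and 4 fell at 10 min (median 0.33), and 9 rose and 2 fell at 60 min (median 1.12). The share that fell at 10 min was near the 30.2% of all tested genes, of which 26.8% rose at 10 min, and at 60 min 38.6% rose and 38.5% fell. ARO9, the aromatic aminotransferase gene, was late like GDH3, at 97.0 and 106 untreated, 144 and 147 at 10 min, and 2386 and 2447 at 60 min, log2 changes of 0.51 and 4.56 (limma adjusted p = 0.000586 and 5.23e-09). UGA1, for the GABA transaminase, rose by 2.71 and 3.46, the alanine transaminase gene ALT1 by 2.20 and 2.89, and BAT2, for the cytosolic branched-chain transaminase, by 1.79 and 2.71. The 2 genes that fell at 60 min were BAT1 and ALT2, the paralogues of BAT2 and ALT1. Both were called lower at both times, with log2 changes of -0.68 and -2.50 for BAT1 and -0.44 and -1.86 for ALT2. Scaled to the same total signal, 2 genes of this list were called lower at 10 min. That share was near the 1152 of all 6127 tested genes.

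Of 17 genes for enzymes that spend glutamine as an amide donor, 5 rose and 8 fell at 10 min (median -0.00), and 10 rose and 6 fell at 60 min (median 0.43). The shares that rose at 10 min and fell at 60 min were near those of all tested genes (26.8% and 38.5%), of which 30.2% fell at 10 min and 38.6% rose at 60 min. Without library 22, 2 instead of 5 rose at 10 min. URA7, for CTP synthase, fell from 613 and 597 to 94.0 and 99.6 and then 18.0 and 17.1, log2 changes of -2.63 (limma adjusted p = 1.13e-07) and -5.03 (limma adjusted p = 5.02e-09). GUA1, for GMP synthase, fell as well (-1.17 and -3.46), as did ADE4, the first enzyme of purine synthesis (-1.09 and -0.23). The 60 min fall of ADE4 became a rise of 0.45 (limma adjusted p = 0.000419) with libraries scaled to the same total signal, and was not called without library 26 (-0.17, limma adjusted p = 0.155). CPA1, of carbamoyl phosphate synthesis for arginine, changed direction, from 660 and 544 untreated to 177 and 155 at 10 min and 4073 and 3917 at 60 min, log2 changes of -1.85 (limma adjusted p = 4.73e-06) and 2.73 (limma adjusted p = 2.04e-07). SNO1, of vitamin B6 synthesis, was at 0.10 at 10 min (limma adjusted p = 0.475) and rose by 5.27 at 60 min (limma adjusted p = 1.02e-08). With libraries scaled to the same total signal, 8 of the 17 genes were called higher at 10 min and 3 lower at 60 min. Both shares were near those of all 6127 tested genes under that scaling, 2560 higher at 10 min and 1125 lower at 60 min.

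**Figure D5:**
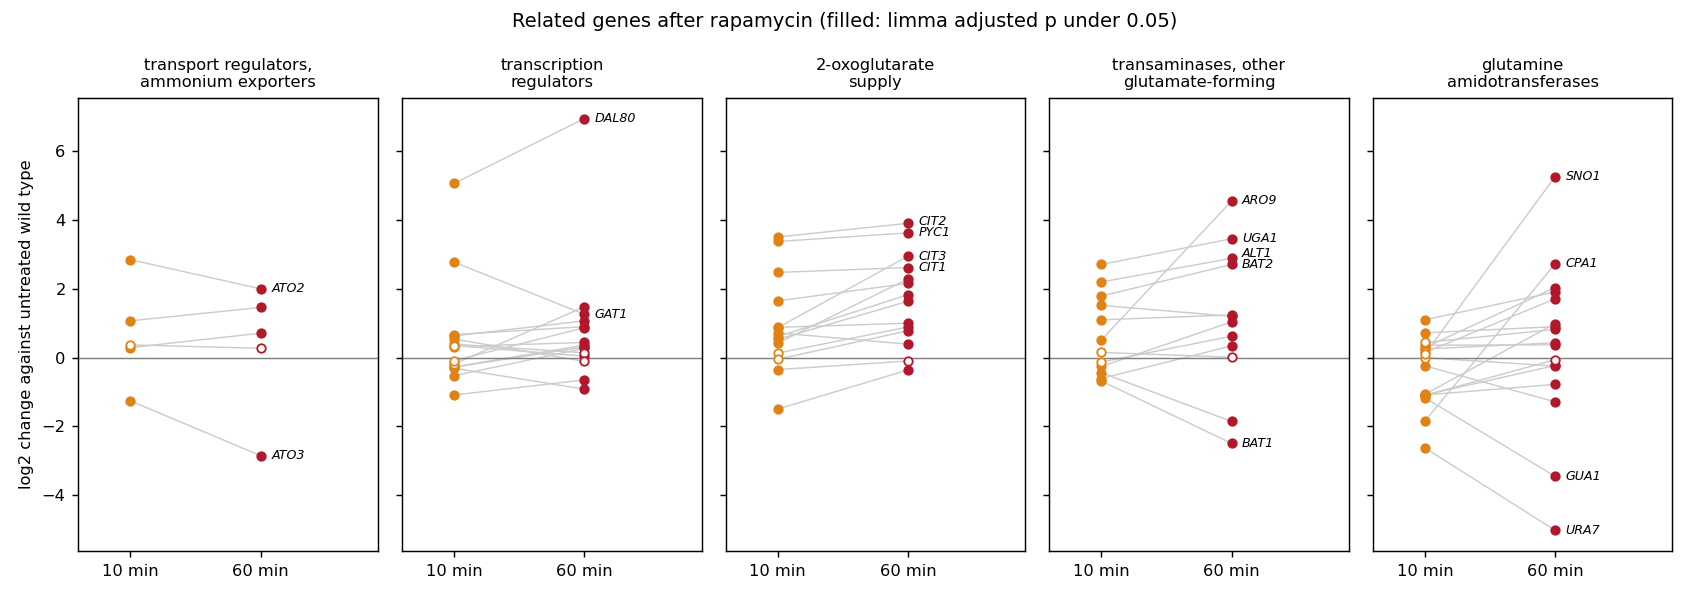
Log2 change of scaled signal plus 1 against untreated wild type (vertical axis) at 10 and 60 min for the genes of 5 related lists, a line joining each gene and filled points for limma adjusted p under 0.05. Names are given for genes that moved by more than 2.4 on the log2 scale at either time, among them DAL80 (6.96 at 60 min), SNO1 (5.27) and URA7 (-5.03).

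In the prp4-1 pair 4 of the 8 genes were at least 2-fold lower in prp4-1 pGAL-IFH1 than in prp4-1 and 0 were at least 2-fold higher, where 11.5% and 8.5% of the 6222 genes whose mean signal in the pair reached 1 were. With 1 library each there is no test, and the strains differed at MET17 and URA3 too, so the effect of IFH1 and that of other loci cannot be told apart. MEP1 had signal of 33.3 in prp4-1 and 4.45 in prp4-1 pGAL-IFH1, a log2 ratio of -2.65 that ranked 119 from the lowest. GDH3 had 18.3 and 3.71 (log2 ratio -2.04, rank 224).

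The abundant assimilation genes were lower as well. GLN1 had 2629 in prp4-1 and 1066 in prp4-1 pGAL-IFH1 (log2 ratio -1.30) and GDH1 had 2455 and 1025 (-1.26). MEP2 had 41.2 and 22.9 (-0.82), MEP3 56.8 and 51.8 (-0.13), GDH2 98.2 and 89.6 (-0.13) and GLT1 77.9 and 98.8 (0.34). The median of the 8 log2 ratios was -1.04, against 0.00 over all genes. Per kilobase, GLN1 signal was 195 times that of GLT1 in prp4-1 and 62.4 times in prp4-1 pGAL-IFH1, and MEP1 held 25.4% and 5.62% of the MEP signal. The 8 genes together took 0.163% of the library signal in prp4-1 and 0.0771% in prp4-1 pGAL-IFH1. In wild type they took 0.133% and 0.127% untreated, 0.791% and 0.762% at 10 min, and 0.758% and 0.724% at 60 min.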

How the data were processed

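Poly(A) RNA from 8 yeast cultures was sequenced as strand-specific (dUTP) libraries, per the labels' protocols. The submitters' processing notes name TopHat and Bowtie, without versions, and the sacCer3 build. The authors deposited scaled signal for 6569 genes. Their gene counting, their choice of scaling and any division by length are not stated, so read depth and counting error are unknown. A further 8 per-sample columns (unscaled signal) and 3 columns of averages were left out. The column names give the group and a library number, but no replicate number.

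Wild type was analysed in limma 3.58.1 (R 4.3.3). All 6 libraries entered 1 fit with an intensity trend, on log2(scaled signal + 1), over 6127 genes (mean signal 1 or more). The threshold was an adjusted p of 0.05 (Benjamini-Hochberg, over all tested genes). A gene's SE was the same in all 3 comparisons. The prp4-1 pair was described by log2 ratios of signal plus 1 for 6222 genes. The fit was tested on simulated data. Log2 ratios between genes were taken on signal plus 1, without division by length, and used two-sided exact permutation tests (SciPy 1.17.1). The members' positions were the same in the deposited gene models and in R64, and promoters were read from the RefSeq R64 assembly.

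The members and lists were chosen with earlier results of these data known. Named were all 8 members, the 3 genes of each of 5 lists with the smallest limma p at each time, and the 2 genes nearest to each member in course. Outside this rule, BAT1 and ALT2 were named as the 2 genes of their list that fell at 60 min. The alternatives were 13 other wild-type fits, with other pseudocounts, filters and scaling, no trend, only the groups compared, and each library left out in turn. A group left with 1 library was assumed to vary like the others.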

Additional observations from a re-analysis of the deposited data

Results flagged for a closer look

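The 60 min and 10 min effects of rapamycin, both against untreated cells, differed for all 8 genes by limma's direct comparison of 60 with 10 min at an adjusted p under 0.05, where 35.4% of all tested genes were called higher and 33.8% lower. The log2 differences (60 min minus 10 min) were -1.83 for MEP1, -0.23 for MEP2, -0.58 for MEP3, -0.52 for GDH1, -1.40 for GDH2, 3.21 for GDH3, -0.64 for GLN1 and 1.66 for GLT1. Those of GDH3, GLT1, MEP1 and GDH2 kept their direction and their call under all 13 alternative fits. Those of MEP3, GDH1 and GLN1 lost the call when libraries were scaled to the same total signal, and that of MEP2 turned its direction there.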

How the results depend on the processing

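Of 312 alternative values of the 8 genes' wild-type log2 changes, 304 kept direction and call, 7 lost the call and 1 turned its direction. The latter was MEP2 between 10 and 60 min, at 0.23 (limma adjusted p = 0.0279) with each library scaled to the same total signal. That scaling also set the genes called lower between 10 and 60 min at 2 of the 8, and the counts over all genes at 2560 higher and 1152 lower at 10 min, 3997 and 1125 at 60 min, and 3775 and 908 between the times. It raises the changes because summed signal was lower at 10 min than untreated and lowest at 60 min. The adjusted p of MEP2 between the times was 0.0512 in limma without an intensity trend, and the cause was not tested. All rises of the 8 genes against untreated held in every alternative, with log2 changes at 10 min from 0.34 for GLT1 to 6.43 for MEP2. Leaving out 1 library moved the 10 min change of MEP2 from 6.16 to 6.29 and the 60 min change of GDH3 from 4.62 to 4.79. Of 390 alternative list counts, 16 moved by over 1.5 times. Without library 22, 2 amidotransferase genes rose at 10 min instead of 5, and 3 regulator genes fell instead of 5. Of 546 alternative values of the list genes named by smallest p, 4 turned direction. These were GLN3 at 10 min (0.02), LEU3 at 60 min (0.02) and ADE4 at 60 min (0.45) with the same total signal, and SNO1 at 10 min without 1 library, which ran from -0.04 without library 25 to 0.24 without library 22. GLN3 at 10 min was called lower with a mean of at least 10 (limma adjusted p = 0.0427), with no filter (0.0483) and without library 24 (0.0267). Of 32 alternative log2 ratios of the members in the prp4-1 pair, 8 moved by at least the SD of a difference between wild-type replicates. The ratio of MEP1 was -2.87 with a pseudocount of 0.1 and -2.02 with 5, and that of GDH3 -2.27 and -1.42. With the same total signal per library MEP2 was at -0.70, MEP3 at -0.02, GLN1 at -1.19 and GLT1 at 0.45. No paired analysis was possible because the columns carry no replicate number. Groups of 2 libraries and unknown depth limit all values, most of all those of low signal such as GDH3 and MEP1.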

Other observations

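In the prp4-1 pair, with 1 library each and no test, 11.5% of all genes were at least 2-fold lower in prp4-1 pGAL-IFH1 and 8.5% at least 2-fold higher. Of the 14 genes that supply 2-oxoglutarate, 7 were at least 2-fold lower in prp4-1 pGAL-IFH1, with a median log2 ratio of -0.98. CIT1 had signal of 753 in prp4-1 and 116 in prp4-1 pGAL-IFH1, and CIT2 had 775 and 160. Of the 5 transporter regulators and exporters, ATO2 was lower (21.9 and 3.33) and ATO3 higher (226 and 612). Of the 12 transaminase and related genes, 3 were at least 2-fold higher and 3 at least 2-fold lower, and ALT1 had 206 and 510. Of the 15 regulators 2 were at least 2-fold lower, a share near the 11.5% of all genes, and one of them was GAT1, with 110 and 52.9. Of the 17 amidotransferase genes 1 was at least 2-fold higher and 2 at least 2-fold lower, shares near those of all genes. Their median log2 ratio was -0.02. Among them SNO1 had 96.0 and 14.8 and URA7 388 and 917. These strains differed at MET17 and URA3 as well.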
